A study of Mus musculus with 24 samples.

Results

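The 9 genes Mbp, Mag, Mog, Mobp, Cnp, Mal, Cldn11, Opalin and Ermn encode proteins of compact myelin, of its non-compact borders and of the oligodendrocyte (OL) surface. They were taken by name from a table of 21965 genes, with earlier results of these data known. All 9 were among the 17167 genes tested. Expression was measured by RNASeq in the spinal cord of OL-Ribotag mice, in which a tamoxifen-induced Cre that is active in mature OLs adds a hemagglutinin (HA) tag to the ribosomal protein RPL22. Every group carried this genotype, naive mice included. The mice were females, injured at an age of 10-12 weeks by the labels (the study's methods give a younger range). Injury was a moderate contusion at T9 (IH impactor, 50 kdyn), and cord segments were taken at day post-injury (dpi) 2, 10 or 42. Uninjured naive mice served as controls and were collected together with the dpi 42 mice. They were thus older at collection, and longer past tamoxifen, than dpi 2 and dpi 10 mice, and at these times age and injury cannot be told apart. From each lysate, poly-A RNA bound to HA-tagged ribosomes (OL translatome) and 10% of the lysate kept as input (total RNA) were sequenced. The 24 libraries form 8 groups of 3, namely OL and total RNA of naive, dpi 2, dpi 10 and dpi 42, each library from 2 pooled mice. The Cre can also be active in Schwann cells wherever peripheral myelin is present. In bulk tissue, fewer OLs and less RNA per OL cannot be told apart.

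In the GRCm38 annotation, Mbp lies at chr18:82475146-82585637 on the plus strand, Mobp at chr9:120149707-120181484 on the plus strand, Mal at chr2:127633226-127656695 on the minus strand and Cldn11 at chr3:31149920-31164324 on the plus strand. Cnp lies at chr11:100574904-100591729 on the plus strand and Ermn at chr2:58045113-58052864 on the minus strand. Mag lies at chr7:30899176-30914873, Mog at chr17:37010743-37023398 and Opalin at chr19:41061710-41077113, all on the minus strand. Parts of Cnp and Ermn overlap a gene on the opposite strand, Dnajc7 and Galnt5 respectively, and whether reads were counted by strand is not given in the sources used here. Values are sums over all exons of a gene.

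Myelin is OL membrane wrapped around an axon in layers. Most layers are compacted until their cytoplasmic faces touch, while loops at the paranode, the innermost tongue and the outermost tongue keep cytoplasm. Mbp, myelin basic protein, holds the cytoplasmic faces together, and Mobp lies in the same dense line. Mal is a small proteolipid of lipid rafts. Cldn11 is the claudin that forms the tight junction strands between myelin layers, and outside OLs it is made by Sertoli cells and by the arachnoid barrier. Cnp, the phosphodiesterase CNPase, and Ermn, an actin-binding protein, belong to the cytoplasm-containing parts of the sheath. On the cell surface, Mag faces the axon and binds sialylated glycans, Mog sits on the outermost layer and is a classical autoantigen of myelin, and Opalin is a sialylated glycoprotein of OL membranes and paranodal loops. Mbp, Mag, Mal and Cnp are also part of peripheral myelin made by Schwann cells.

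The bases just before the transcription start are shown for the 3 genes with the largest changes on dpi 2, Cldn11, which rose, and Cnp and Opalin, which fell. They come from RefSeq on GRCm38.p6 and are written on the strand of the gene, ending at its annotated start, at chr3:31149670-31149919 for Cldn11, chr11:100574689-100574903 for Cnp and chr19:41077114-41077363 for Opalin. The RefSeq window of Cnp runs on to base 100574938 and was cut here at the start of the gene given above. Match positions below count from the RefSeq start. Capitals mark matches, on either strand, to ACAAAG (the core that SOX factors bind) or CTGGNAC (letters that take in the motif of the OL factor MYRF). TATAAA (the TATA box) and TGANTCA (AP-1) were searched too.
Cldn11: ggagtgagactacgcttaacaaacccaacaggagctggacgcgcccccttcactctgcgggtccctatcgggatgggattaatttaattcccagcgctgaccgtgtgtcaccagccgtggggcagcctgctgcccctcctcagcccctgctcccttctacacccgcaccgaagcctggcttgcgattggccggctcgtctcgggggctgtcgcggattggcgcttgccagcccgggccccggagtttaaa
Cnp: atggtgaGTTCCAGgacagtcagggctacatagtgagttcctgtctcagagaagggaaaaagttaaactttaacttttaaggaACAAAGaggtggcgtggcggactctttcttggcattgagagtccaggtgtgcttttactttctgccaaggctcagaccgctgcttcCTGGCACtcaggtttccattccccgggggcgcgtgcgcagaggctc
Opalin: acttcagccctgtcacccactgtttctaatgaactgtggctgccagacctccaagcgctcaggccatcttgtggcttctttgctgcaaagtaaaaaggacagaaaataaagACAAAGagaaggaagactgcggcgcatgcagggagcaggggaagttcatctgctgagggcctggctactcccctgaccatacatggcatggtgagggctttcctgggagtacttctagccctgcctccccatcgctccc

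Of the 9 genes, 8 had such a window of 250 bases before the RefSeq start. Cldn11, Mal and Ermn held none of the 4 motifs in it. Cnp held ACAAAG beginning 167 bases before the RefSeq start and CTGGNAC at 243 and 81 bases. Opalin held ACAAAG at 139 bases and Mog held CTGGNAC at 83 bases. In Mobp, ACAAAG occurred 6 times, and the window nearest the main Mag start held it once together with 2 matches to CTGGNAC. Neither the TATA box nor the AP-1 letters were found in these windows. Among all 32851 windows, 16.5% held ACAAAG, 16.1% CTGGNAC, 12.4% TATAAA and 6.75% TGANTCA, so a match in a single window is common. GC content was 63.6% in the Cldn11 window and 40.8% in that of Mobp, beside a median of 52.4% over all windows. A match describes letters only and shows no binding.

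Libraries held 25840127 to 32987841 counted reads (median 29062636), and the lowest count of any of the 9 genes in any library was 890. Levels are given as CPM, read counts relative to the TMM-scaled total of the library. Some libraries stood apart. The OL library of naive pool 3 had the highest level of astrocyte and Schwann cell markers among the naive OL libraries and low levels of several of the 9 genes. In 5 OL libraries (dpi 42 pools 1 and 2, naive pool 3, dpi 2 pool 3 and dpi 10 pool 2), summed astrocyte markers lay between 7764 and 14905 CPM, against 2308 to 4202 CPM in the other 7. Both libraries of dpi 2 pool 2 held 2414 to 2604 reads of Y-linked genes, against at most 13 in the other 22 libraries, although the labels give females. For 2 dpi 42 libraries, OL pool 1 and total RNA pool 2, the labels conflict in the kind of RNA. Their titles and tissue labels name the other kind than their descriptions, and the descriptions, which match the column names of the count table, were followed. Each of the 9 genes was higher in this OL library than in every total RNA library, and lower in this total RNA library than in every OL library. By the column names these 2 libraries share tissue, as do OL pool 2 and total RNA pool 1 of dpi 42, so pools 1 and 2 of dpi 42 are not the same tissue in both kinds of RNA. The p-values measure the spread between pools of mice.

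Together the 9 genes took 7.01 to 8.05% of all counts in the naive OL libraries, 7.06 to 8.55% on dpi 2, 8.14 to 9.07% on dpi 10 and 7.25 to 8.88% on dpi 42. In total RNA the share was between 1.93% and 2.28% in all 12 libraries. Mbp alone made up 58.8 to 59.5% of the counts of the 9 genes in naive OL libraries, 53.0 to 57.3% on dpi 2, 60.4 to 65.6% on dpi 10 and 64.0 to 65.3% on dpi 42. The 3 dpi 2 OL libraries thus had the lowest Mbp shares of the 12.

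Genes were compared with each other as CPM per kb of exon. In naive OL samples Mbp was highest at 7011 ± 923 CPM per kb (SD, n = 3). It was followed by Cnp at 2795 ± 391, Mag at 2284 ± 347 and Cldn11 at 2086 ± 351, of which neighbours overlapped. Mal at 1548 ± 95.5, Mobp at 1206 ± 97.9 and Mog at 979 ± 125 stood apart from each other in every library. Ermn at 828 ± 184 overlapped with Mog, and Opalin was by far the lowest at 81.3 ± 8.48. Mbp was at place 1 and Opalin at place 9 in each of the 8 groups.

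Cldn11 and Cnp changed place on dpi 2. Cldn11 was at place 4 in naive samples, at place 2 on dpi 2 and dpi 10, and at place 3 on dpi 42, both in the OL translatome and in total RNA. On dpi 42 its libraries overlapped with those of Cnp and Mag in the OL translatome and of Mobp in total RNA. In naive total RNA they overlapped with those of Cnp and Mal. Cnp went from place 2 in naive to place 4 on dpi 2 in the OL translatome and from place 3 to place 6 in total RNA. Its OL libraries overlapped with those of Mag in naive samples and of Mobp on dpi 2. In total RNA they overlapped with those of Cldn11 and Mal in naive samples and of Mal and Mag on dpi 2. On dpi 2 the OL level of Cldn11 was 5194 ± 1388 CPM per kb and its libraries overlapped with those of Mbp at 5878 ± 712. In total RNA, Mobp was at place 2 in naive samples with 426 ± 31.2 CPM per kb, against place 6 in naive OL samples.

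**Figure D1:**
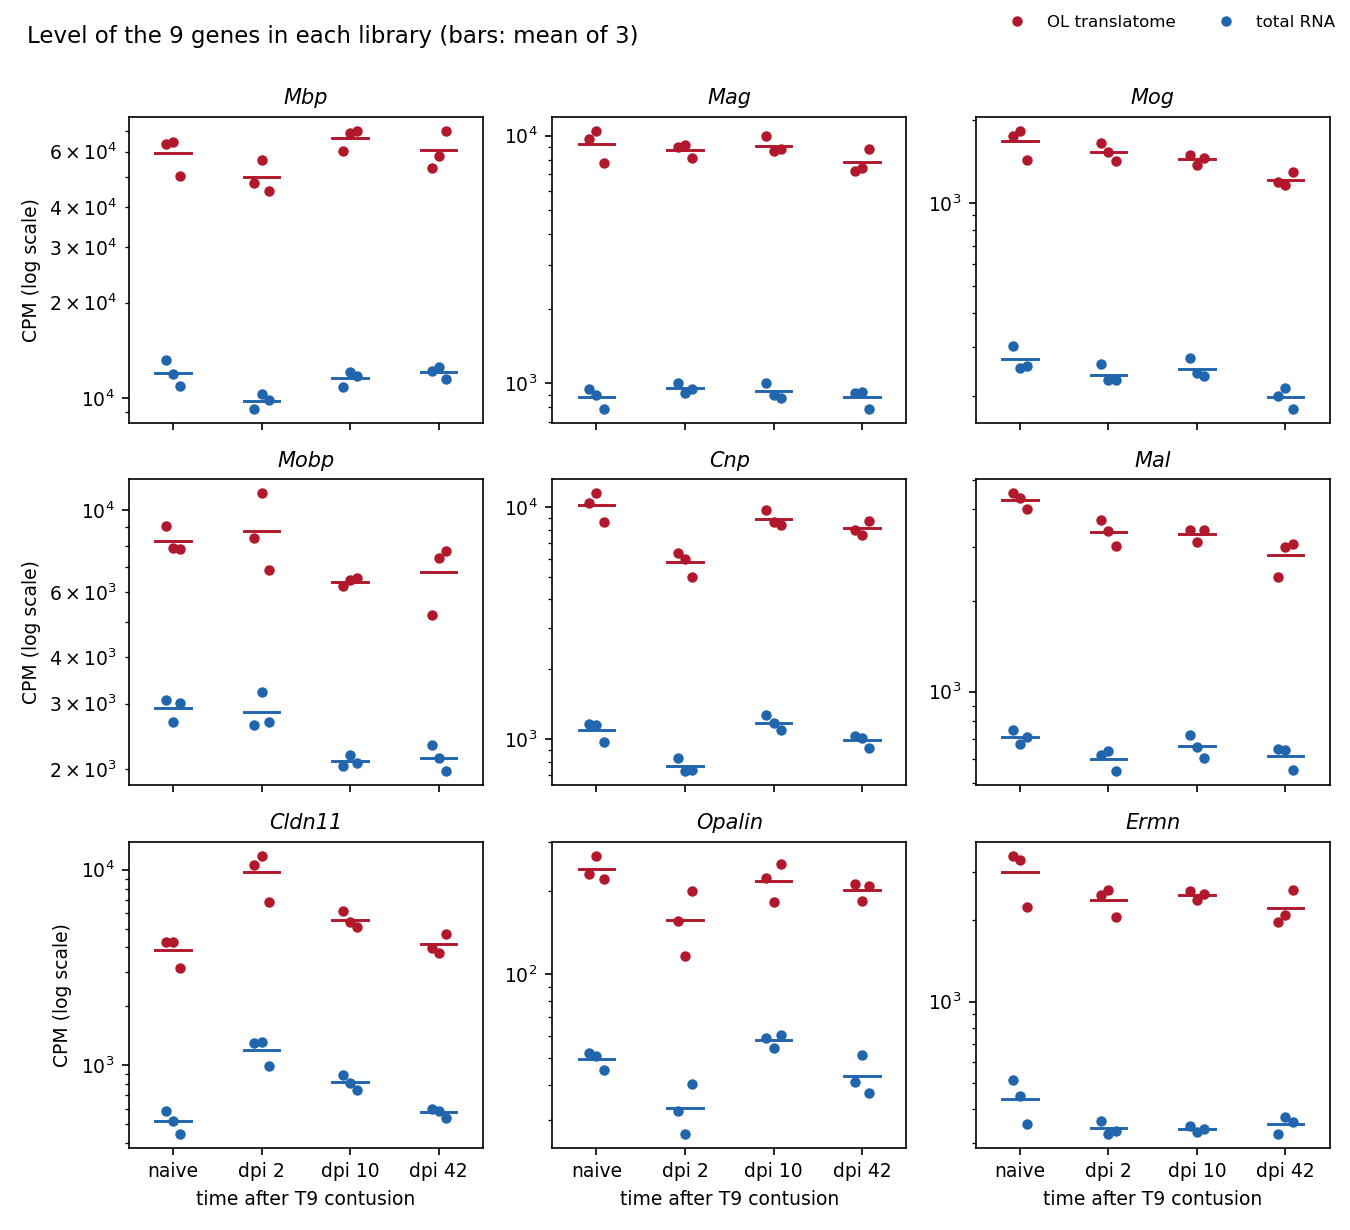
Level of each of the 9 genes in every library, in TMM-scaled CPM on a log axis, for OL translatome and total RNA of naive, dpi 2, dpi 10 and dpi 42. Points are libraries and lines are group means (n = 3). OL points lie above total RNA points for every gene at every time, and Cldn11 on dpi 2 stands above its naive level in both kinds of RNA.

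OL enrichment, the ratio of OL translatome to total RNA of the same group, compared the level of each mRNA in HA-bound RNA with that in the input. Its size does not give the part of an mRNA that is made by tagged cells. Mag was the most enriched in naive cord, with 9665, 10495 and 7738 CPM in OL libraries against 950, 898 and 791 CPM in total RNA. This is 10.6-fold, a log2 ratio of 3.40 (95% CI 3.14 to 3.67). Cnp followed with 9.28-fold (3.21, CI 2.95 to 3.48) and Cldn11 with 7.55-fold (2.92, CI 2.54 to 3.30). Ermn was enriched 6.86-fold, Mog 6.15-fold, Mal 6.06-fold, Mbp 4.96-fold and Opalin 4.84-fold. Mobp was lowest at 2.83-fold (1.50, CI 1.18 to 1.82), with 9035, 7893 and 7854 CPM in OL libraries against 3074, 2673 and 3004 CPM in total RNA. The interval of Mobp did not overlap that of any other of the 9 genes in naive cord.

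All 9 genes were OL-enriched at each of the 4 times by the edgeR quasi-likelihood test with Benjamini-Hochberg adjustment. In naive cord 24.9% of all tested genes were called higher in OL samples, and 24.8%, 25.2% and 24.9% on dpi 2, 10 and 42. The largest adjusted p among the 36 values was 2.8e-08, that of Mobp in naive cord. At each time the 3 OL libraries were above the 3 total RNA libraries for all 9 genes, as they were for 28.8%, 25.2%, 29.2% and 25.6% of all tested genes. The median log2 ratio of the 9 genes was 2.62, 2.68, 2.52 and 2.62 in naive, dpi 2, dpi 10 and dpi 42 samples, beside -0.27, -0.19, -0.22 and -0.18 over all tested genes. Mag stayed at 3.20, 3.30 and 3.16 after injury and Mobp at 1.63, 1.61 and 1.67. The lowest Opalin value was 1.91 on dpi 10.

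**Figure D2:**
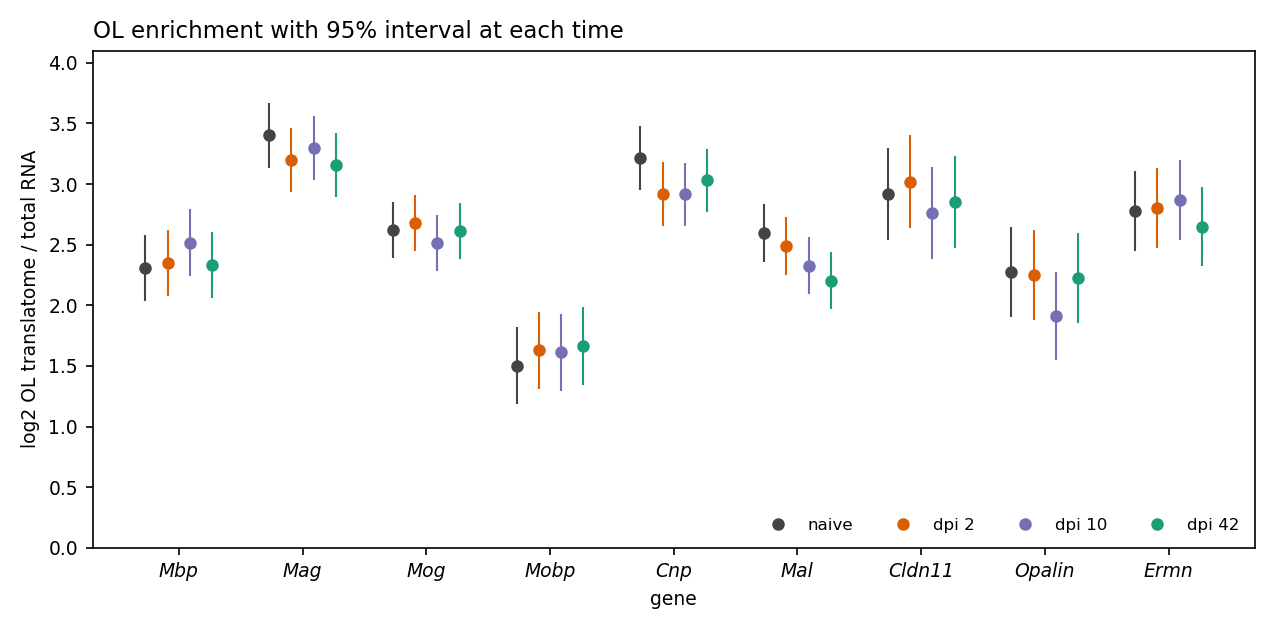
OL enrichment of each gene as the log2 ratio of OL translatome to total RNA in naive, dpi 2, dpi 10 and dpi 42 samples, with bars for the 95% CI of the edgeR fit (n = 3 libraries per group). All values lie above 0, from 1.50 for Mobp to 3.40 for Mag in naive cord.

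After injury, the 9 genes did not change in one direction. In the OL translatome on dpi 2, Cldn11 rose while Cnp, Opalin and Mal fell, so 4 of 9 passed the test, beside 38.4% of all tested genes. On dpi 10, Cldn11 rose and Mal fell, 2 of 9 beside 18.2% of all genes. On dpi 42, Mal, Mog, Ermn and Cnp fell, 4 of 9 beside 33.1%. The median log2 change of the 9 genes was -0.25, -0.19 and -0.28 on dpi 2, 10 and 42, beside 0 for all tested genes at each time. These medians rest on the TMM scaling. With library sizes alone the decreases were weaker, and the medians of all tested genes were 0.05, 0.06 and 0.06. In total RNA, 3 of 9 passed on dpi 2 (Cldn11 up, Cnp and Opalin down), 2 on dpi 10 (Cldn11 up, Mobp down) and 2 on dpi 42 (Mog and Mobp down), beside 37.2%, 32.1% and 22.5% of all genes. Here the medians were -0.24, -0.05 and -0.20, beside -0.10, -0.10 and -0.08 for all genes, again with TMM scaling. The 3 times share the same naive libraries.

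Cldn11, the tight junction claudin, was the only gene of the 9 called higher than in naive cord. In other settings Mag in total RNA was called too, with 0.24 to 0.34 on dpi 2 in 3 of 36 alternatives and 0.23 to 0.26 on dpi 10 in 2, as were Cnp in 2 and Opalin in 1 on dpi 10. The OL level of Cldn11 was 4280, 4278 and 3143 CPM in the naive libraries and 10549, 11786 and 6802 CPM on dpi 2. All 3 injured libraries lay above all naive libraries, and the lowest of them was pool 3. The increase was 2.49-fold (log2 1.32 ± 0.17 SE, CI 0.96 to 1.68, adjusted p = 3.8e-06). In total RNA, Cldn11 was at 585, 519 and 445 CPM in naive and 1295, 1307 and 990 CPM in dpi 2 samples, again without overlap. The increase there was 2.32-fold (1.21 ± 0.17, CI 0.85 to 1.57, adjusted p = 1.1e-05).

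By dpi 10, Cldn11 was at 6110, 5412 and 5105 CPM in the OL translatome, all above naive but below dpi 2. This was a 1.42-fold increase over naive (0.51 ± 0.17, CI 0.15 to 0.86, adjusted p = 0.043). In total RNA the dpi 10 libraries held 894, 812 and 742 CPM, a 1.58-fold increase (0.66 ± 0.17, CI 0.30 to 1.02, adjusted p = 0.0049). On dpi 42, OL levels of 3977, 3753 and 4698 CPM overlapped with naive (0.09, CI -0.27 to 0.44, adjusted p = 0.78), as did total RNA levels of 598, 585 and 536 CPM (0.15, CI -0.20 to 0.51, adjusted p = 0.59). With an offset for gene length and GC content the OL value on dpi 42 turned to a called decrease (-0.60, adjusted p = 0.039). The dpi 2 increases kept their call under each of 36 alternative settings, with log2 changes of 0.65 to 1.48 in OL and 0.67 to 1.44 in total RNA samples, the lowest of both with the length and GC offset. The OL call on dpi 10 was lost in 15 of the 36, of which 12 left out a single library (0.37 to 0.58, adjusted p up to 0.17), among them any OL library of naive or dpi 10 mice, and the value was 0.00054 with the length and GC offset. The total RNA call on dpi 10 was lost with the length and GC offset (adjusted p = 0.47).

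The change of Cldn11 in the OL translatome on dpi 2 was ranked among 555 other genes with a naive OL log2 enrichment above 2. Of these, 20 increased by as much or more. The median change of the 555 was -0.54. These genes were selected through the naive OL libraries, which are also the baseline of this change. The selection alone can thus lower their changes, so the rank of Cldn11 among them decides nothing. On dpi 10, 54 increased by as much as Cldn11 did. In total RNA, whose naive libraries also enter the selection, 55 did so on dpi 2 (median -0.08) and 120 on dpi 10. Of all tested genes, 86.2% had a smaller OL change than Cldn11 on dpi 2. Leaving out the gene ranked each time, 178 of 555 had an OL change on dpi 2 as low as Cnp or lower. The numbers were 337 for Mal and 396 for Mog.

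Cnp, the CNPase of non-compact myelin, changed the other way. In the naive OL libraries it was at 10373, 11480 and 8658 CPM, and on dpi 2 at 6352, 5989 and 4978 CPM. Every dpi 2 library was below every naive library. It fell 1.76-fold (log2 -0.82 ± 0.12, CI -1.06 to -0.57, adjusted p = 1.1e-05). In total RNA it went from 1164, 1148 and 977 CPM in naive to 830, 728 and 735 CPM in dpi 2 samples, also without overlap, and fell 1.43-fold (-0.52 ± 0.12, CI -0.76 to -0.28, adjusted p = 0.0013). Both dpi 2 calls held under all 36 alternatives. On dpi 10, OL levels of 9695, 8646 and 8366 CPM overlapped with naive (-0.19, adjusted p = 0.29, but called at -0.52 with the length and GC offset, adjusted p = 0.030), and total RNA levels were 1275, 1175 and 1091 CPM (0.11, adjusted p = 0.54). Total RNA on dpi 42 gave -0.15 (adjusted p = 0.41). On dpi 42 the OL levels of 7945, 7592 and 8717 CPM gave a call (-0.33 ± 0.12, adjusted p = 0.034) although the highest of them lay above the lowest naive library. This call was lost in 6 alternatives, among them without the OL library of naive pool 2 (-0.29, adjusted p = 0.099), without dpi 42 pool 1 (-0.36, adjusted p = 0.056), without dpi 42 pool 2 (-0.34, adjusted p = 0.069) and without the 5 OL libraries of highest astrocyte level (-0.34, adjusted p = 0.074). The last setting leaves 1 OL library on dpi 42, pool 3, which is assumed to vary like the other groups.

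Ermn, which binds actin, was at 3456, 3334 and 2239 CPM in naive OL libraries, the last of these in pool 3. Its dpi 2 levels of 2485, 2577 and 2053 CPM did not pass the test (-0.34 ± 0.15, adjusted p = 0.072), nor did dpi 10 (-0.29, adjusted p = 0.20). The dpi 2 change was called in 12 of the 36 alternatives, 9 of which left out a single library (-0.58 to -0.41). With dpi 42 levels of 1970, 2079 and 2582 CPM it fell 1.36-fold (-0.45 ± 0.15, adjusted p = 0.024), while the groups overlapped. Without the OL library of naive pool 3, the log2 change of Ermn was -0.58 on dpi 2 (adjusted p = 0.0018), -0.46 on dpi 10 (adjusted p = 0.021) and -0.67 on dpi 42 (adjusted p = 0.00063), all past the threshold. The dpi 42 call was lost in 8 alternatives, among them without OL naive pool 1, OL naive pool 2, OL dpi 42 pool 1 or OL dpi 42 pool 2 (-0.45 to -0.38, adjusted p up to 0.090), without the 5 OL libraries of highest astrocyte level (-0.41, adjusted p = 0.050046, with 1 library left on dpi 42) and with the length and GC offset (-0.33, adjusted p = 0.12). In total RNA, Ermn was at 354 to 512 CPM in naive and 325 to 375 CPM in injured cord, with log2 changes of -0.37, -0.37 and -0.31 that did not pass (adjusted p = 0.056, 0.058 and 0.14). Without both libraries of naive pool 3 they were -0.50, -0.51 and -0.45 (adjusted p = 0.0020, 0.0023 and 0.0099). The length and GC offset gave calls on dpi 2 and dpi 10 as well (-0.43 and -0.45, adjusted p = 0.035 and 0.028).

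**Figure D3:**
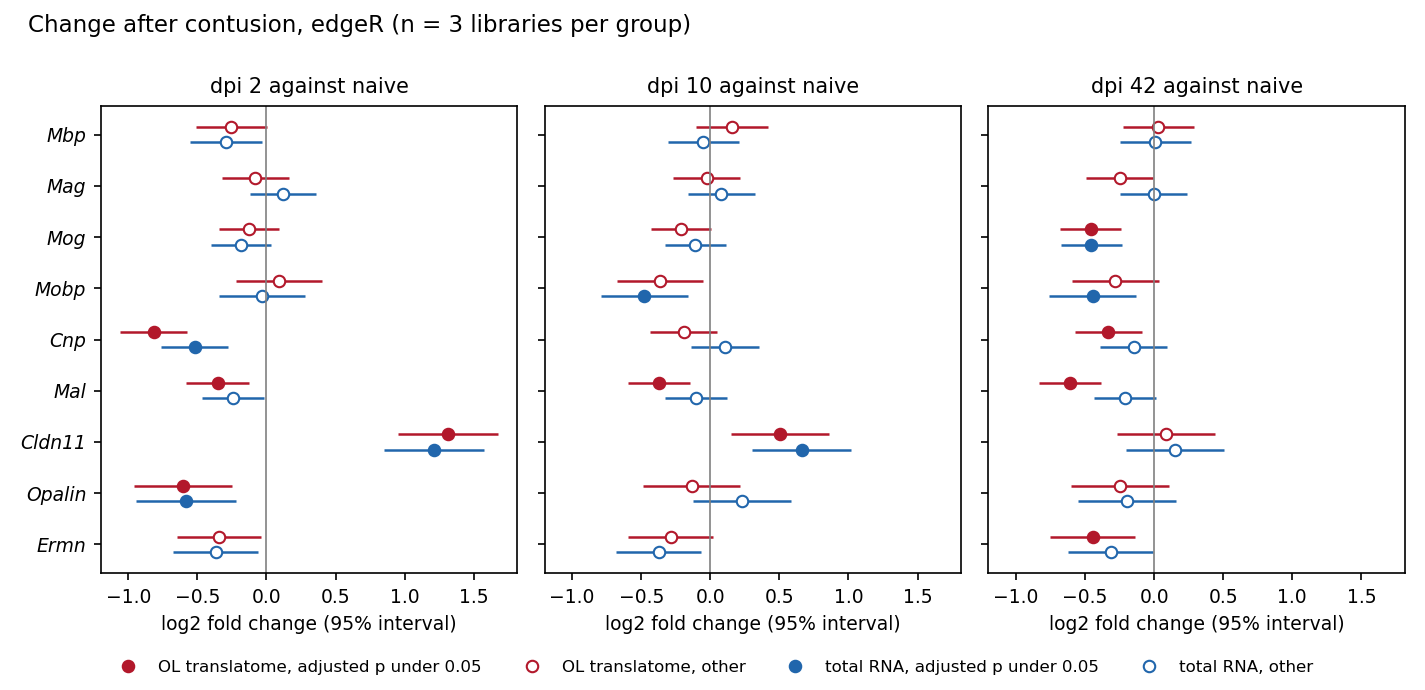
Log2 change against naive for the 9 genes on dpi 2, 10 and 42 in the OL translatome and in total RNA, with bars for the 95% CI of the edgeR fit (n = 3 libraries per group). Cldn11 on dpi 2 is the highest point in both kinds of RNA (1.32 and 1.21), and Cnp in the OL translatome on dpi 2 is the lowest (-0.82).

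Of the compact myelin genes, Mbp did not pass the test at any time in either kind of RNA. Its OL levels were 63254, 64506 and 50379 CPM in naive, 47724, 56568 and 45045 CPM on dpi 2, 60468, 68566 and 69536 CPM on dpi 10, and 53482, 58339 and 70022 CPM on dpi 42. The dpi 2 libraries overlapped with naive only through naive pool 3. The log2 changes were -0.25 (CI -0.51 to 0.00), 0.16 (CI -0.10 to 0.41) and 0.03 (CI -0.23 to 0.29), with adjusted p = 0.12, 0.44 and 0.94. Without the OL library of naive pool 3, the dpi 2 change of Mbp was -0.43 (adjusted p = 0.011), and without both libraries of dpi 2 pool 2 it was -0.36 (adjusted p = 0.046). It was called in 8 of the 36 alternatives. In total RNA, the 3 dpi 2 levels of 9232, 10242 and 9843 CPM were below the 10872 to 13171 CPM of naive cord (-0.29, CI -0.55 to -0.03, adjusted p = 0.070). Without both libraries of naive pool 3 this value was -0.36 (adjusted p = 0.025). On dpi 10 and dpi 42 the total RNA values of Mbp were -0.05 and 0.0085 (adjusted p = 0.80 and 0.98).

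Mal fell in the OL translatome at all 3 times. Naive libraries held 4524, 4372 and 4008 CPM, dpi 2 libraries 3678, 3397 and 3020 CPM, dpi 10 libraries 3420, 3109 and 3428 CPM and dpi 42 libraries 2385, 3003 and 3083 CPM. Every injured library was below every naive library. The decreases were 1.28-fold on dpi 2 (-0.35 ± 0.11, adjusted p = 0.013), 1.30-fold on dpi 10 (-0.37 ± 0.11, adjusted p = 0.019) and 1.52-fold on dpi 42 (-0.61 ± 0.11, CI -0.83 to -0.38, adjusted p = 0.00020). The dpi 42 call held under all 36 alternatives. The dpi 2 call was lost in 2 alternatives, with library sizes in place of TMM and with only the groups compared (adjusted p = 0.13 at most), and the dpi 10 call was lost in 4 alternatives, among them without OL naive pool 1, OL naive pool 2 or OL dpi 10 pool 2 (-0.37 to -0.33, adjusted p up to 0.10). Total RNA levels of Mal were 670 to 746 CPM in naive and 546 to 719 CPM in injured cord, with log2 changes of -0.24, -0.10 and -0.21 that did not pass (adjusted p = 0.086, 0.52 and 0.18). With the length and GC offset all 3 were called (-0.56, -0.38 and -0.48, adjusted p = 0.0038, 0.044 and 0.019).

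Mobp was at 9035, 7893 and 7854 CPM in naive OL libraries and at 8385, 11115 and 6903 CPM on dpi 2 (0.09, CI -0.22 to 0.40, adjusted p = 0.70). The dpi 10 levels of 6220, 6469 and 6546 CPM and the dpi 42 levels of 5207, 7435 and 7762 CPM were all below naive, without passing the test (-0.37 and -0.28, adjusted p = 0.10 and 0.16). On dpi 10 it passed without both libraries of dpi 2 pool 2 (-0.37, adjusted p = 0.045) and without the 5 OL libraries of highest astrocyte level (-0.41, adjusted p = 0.023), and with the length and GC offset (-0.53, adjusted p = 0.043). On dpi 42 it passed without OL dpi 42 pool 3 (-0.46, adjusted p = 0.034) and with TMM scaled to a total RNA library (-0.41, adjusted p = 0.045). In total RNA, Mobp was at 3074, 2673 and 3004 CPM in naive, 2035, 2177 and 2076 CPM on dpi 10 and 2318, 2140 and 1970 CPM on dpi 42. It fell 1.39-fold on dpi 10 (-0.48 ± 0.15, adjusted p = 0.018) and 1.36-fold on dpi 42 (-0.45 ± 0.15, adjusted p = 0.037). These 2 calls were lost in 17 and 21 of the 36 alternatives, in 15 and 17 of them through leaving out a single library, with adjusted p up to 0.10 and 0.15. Most of these libraries were OL libraries, which are not part of the comparison. Naive total RNA pools 1 and 3 were among the others at both times.

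Of the surface proteins, Mag did not pass the test at any time. OL levels were 7738 to 10495 CPM in naive, 8155 to 9195 CPM on dpi 2, 8644 to 9928 CPM on dpi 10 and 7207 to 8844 CPM on dpi 42. The log2 changes were -0.08 (CI -0.32 to 0.16), -0.03 (CI -0.27 to 0.21) and -0.25 (CI -0.49 to -0.01, adjusted p = 0.11). Without the OL library of naive pool 3, the dpi 42 value was -0.42 (adjusted p = 0.0073), and with the length and GC offset -0.56 (adjusted p = 0.016). This change was called in 6 of the 36 alternatives, 3 of which left out a single library (-0.42 to -0.30). In total RNA the Mag intervals ran from -0.24 to 0.36 over the 3 times.

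Mog, the autoantigen of the outermost layer, fell on dpi 42. Its OL levels were 1751, 1826 and 1426 CPM in naive and 1187, 1161 and 1292 CPM on dpi 42, without overlap. This was a 1.37-fold decrease (-0.46 ± 0.11, CI -0.68 to -0.24, adjusted p = 0.0019). Total RNA levels went from 303, 253 and 258 CPM to 200, 214 and 180 CPM, likewise a 1.37-fold decrease without overlap (-0.45 ± 0.11, adjusted p = 0.0033). Both calls held under all 36 alternatives. On dpi 2 and dpi 10 the OL changes of Mog were -0.12 and -0.21 (adjusted p = 0.38 and 0.18). Without the OL library of naive pool 3 they were -0.29 (adjusted p = 0.037) and -0.32 (adjusted p = 0.042). In total RNA they were -0.18 and -0.11 (adjusted p = 0.18 and 0.47). With the length and GC offset Mog was called lower at these times too, at -0.85 and -0.72 in the OL translatome (adjusted p = 0.00013 and 0.0012) and at -0.75 and -0.57 in total RNA (adjusted p = 0.00040 and 0.0044).

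Opalin fell on dpi 2. OL levels were 230, 268 and 221 CPM in naive and 155, 116 and 200 CPM on dpi 2, with every injured library below naive and a wide spread among the 3. The decrease was 1.52-fold (-0.61 ± 0.17, CI -0.96 to -0.25, adjusted p = 0.0073). In total RNA, levels of 52.3, 51.0 and 45.1 CPM in naive and 32.2, 26.6 and 40.2 CPM on dpi 2 gave a 1.50-fold decrease (-0.58 ± 0.17, adjusted p = 0.010). The pool with the lowest dpi 2 level, pool 2, was the same in both kinds of RNA, which share tissue. It is the pool that held reads of Y-linked genes. The OL call was lost in 2 alternatives, with library sizes alone (adjusted p = 0.061) and with a fit to only the groups compared (adjusted p = 0.082). The total RNA call was lost in 12, of which 10 left out a single library (-0.45 to -0.44, adjusted p up to 0.075), namely total dpi 2 pool 2 or any of 9 OL libraries. On dpi 10 and dpi 42, OL changes of -0.14 and -0.25 did not pass (adjusted p = 0.66 and 0.28), although the latter was called with the length and GC offset (-0.51, adjusted p = 0.034). The total RNA levels on dpi 10 of 59.0, 54.2 and 60.6 CPM all lay above naive without passing the test (0.23, CI -0.13 to 0.58, adjusted p = 0.34), and on dpi 42 they overlapped with naive at 37.3 to 51.2 CPM (-0.20, adjusted p = 0.46).

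Differential OL enrichment, the change of the OL translatome minus that of total RNA, asked whether OL mRNA moved apart from the tissue. None of the 9 genes passed at any time with edgeR (0 of 9 on dpi 2, 10 and 42, beside 14.1%, 7.65% and 7.84% of all tested genes), and the DESeq2 Wald test called 0 as well. The interval of Mal on dpi 42 excluded 0, although the gene did not pass by edgeR (-0.40, CI -0.72 to -0.08, adjusted p = 0.12). For Cldn11 the difference on dpi 2 was 0.10, with an interval of -0.40 to 0.60 that leaves room for unequal change. For Cnp it was -0.30 (CI -0.64 to 0.05) on dpi 2. On that day Mag was at -0.20, Mal at -0.11, Opalin at -0.02, Ermn at 0.02, Mbp at 0.04, Mog at 0.06 and Mobp at 0.13, each with an interval that included 0. The values of the 9 genes ran from -0.40 to 0.21, and their intervals reached from -0.87 to 0.61. Without the OL library of naive pool 3, lower OL enrichment was called for Cnp (-0.61, adjusted p = 0.011) and Mag (-0.53, adjusted p = 0.023) on dpi 2, and for Mal (-0.60, adjusted p = 0.022) and Mag (-0.52, adjusted p = 0.035) on dpi 42. Mal on dpi 42 was called in 10 of the 36 alternatives (-0.64 to -0.55) and Cnp on dpi 2 in 7 (-0.61 to -0.51). Such calls also came with TMM scaled to a total RNA library, which moved the median of all genes to -0.17, -0.15 and -0.18 from 0.06, 0.08 and 0.04.

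Because CPM depends on everything else in a library, each gene was also set against the geometric mean of the other 8 within the same library. The log2 ratio of Cldn11 was -0.37 to -0.21 in naive OL libraries, 0.96 to 1.59 on dpi 2, 0.27 to 0.53 on dpi 10 and 0.03 to 0.22 on dpi 42. In total RNA it was -0.70 to -0.54, 0.61 to 1.03, 0.05 to 0.23 and -0.28 to -0.19. Every injured library was above every naive library of its kind, dpi 42 included. The ratio of Cnp was 1.23 to 1.36 in naive OL libraries and 0.45 to 0.61 on dpi 2, and 1.07 to 1.28 and 1.18 to 1.34 on dpi 10 and 42. In total RNA it was 0.58 to 0.71 in naive and 0.08 to 0.24 on dpi 2. For Mal, OL ratios of -0.21 to 0.02 in naive stood against -0.43 to -0.27, -0.45 to -0.38 and -0.61 to -0.33 after injury. In total RNA the Mal ratios overlapped with naive (-0.16 to 0.06) at all 3 times (-0.35 to -0.14, -0.28 to -0.13 and -0.16 to -0.06). The OL ratio of Mbp was 4.13 to 4.16 in naive, 3.89 to 4.14 on dpi 2, 4.25 to 4.57 on dpi 10 and 4.43 to 4.56 on dpi 42, so the libraries of the last 2 times lay above all naive ones. Its total RNA ratios were 4.49 to 4.52, 4.15 to 4.38, 4.28 to 4.54 and 4.69 to 4.76. OL ratios of Mag, Opalin and Ermn overlapped with naive at each time, those of Mog lay below naive on dpi 10 and dpi 42, and those of Mobp on dpi 10. In total RNA, Mag lay above naive at each time, Mog below it on dpi 42, Mobp on dpi 10 and dpi 42 and Ermn on dpi 2 and dpi 10, while Opalin lay below naive on dpi 2 and above it on dpi 10. A ratio of this kind shows unequal change among the 9 genes and not which of them changed.

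**Figure D4:**
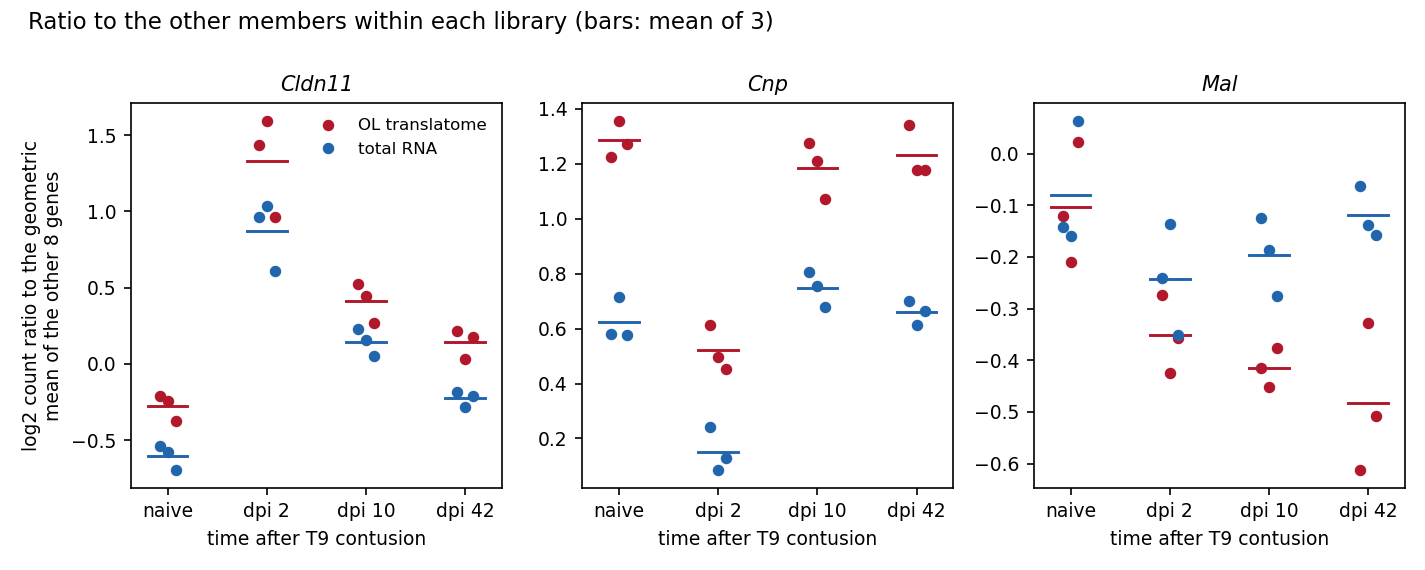
Log2 ratio of Cldn11, Cnp and Mal to the geometric mean of the other 8 genes in the same library, by group, with 1 point per library (n = 3 per group). Cldn11 is highest on dpi 2 (0.96 to 1.59 in OL libraries), where Cnp is lowest (0.45 to 0.61).

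Between times after injury, the dpi 2 changes of Cldn11 and Cnp in the OL translatome were partly undone. That of Mal was not, with further values of -0.02 to dpi 10 and -0.25 to dpi 42 (edgeR, adjusted p = 0.99 and 0.11). From dpi 2 to dpi 10, 4 of 9 genes passed in the OL translatome, beside 22.3% of all genes, with Cnp and Mbp higher and Cldn11 and Mobp lower. Opalin was at 0.47 in the OL translatome over this interval (adjusted p = 0.052) and was called higher in 15 of the 36 alternatives, 11 of which left out a single library (0.47 to 0.74). Over the same interval 2 of 9 passed in total RNA, Cnp and Opalin, both higher, beside 7.84% of all genes. From dpi 2 to dpi 42, Cnp was higher and Cldn11 and Mog were lower in the OL translatome (3 of 9, beside 17.6%), and Cnp was higher and Cldn11 lower in total RNA (2 of 9, beside 10.8%). From dpi 10 to dpi 42 edgeR called 0 of 9 in OL samples and 0 of 9 in total RNA, beside 7.18% and 0.262% of all genes. Mog in total RNA was called lower over this interval in 4 alternatives, the DESeq2 test among them (-0.40 to -0.36).

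Other myelin and OL sheath genes gave a frame for the 9. All 36 on this list were OL-enriched at each time, with median log2 ratios of 2.56, 2.31, 2.57 and 2.38, where 24.8% to 25.2% of all tested genes were called higher in OL samples. In the OL translatome on dpi 2, 7 of the 36 rose and 17 fell (median -0.24). On dpi 10, 6 rose and 6 fell (median -0.03), and on dpi 42, 5 rose and 12 fell (median -0.03). Over all tested genes, 38.4%, 18.2% and 33.1% were called at these times in either direction. Total RNA gave 6 up and 16 down, 5 up and 9 down, and 6 up and 7 down, beside 37.2%, 32.1% and 22.5% of all genes. The largest OL changes on dpi 2 were those of Cd9, a tetraspanin (1.82), Trf, transferrin (1.55), Gpr37, an orphan receptor of OLs (-1.44), and Omg, a myelin glycoprotein (-1.36), all past the threshold. Like the 9 genes, this list held members that moved in opposite directions.

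Over the 12 OL libraries, the genes whose log2 CPM was most like the mean standardised level of the 9 were Ick (Pearson r = 0.968), Atxn3 (0.961), Txndc16 (0.961), Ell2 (0.956) and Dpy19l1 (0.956), out of 8932 genes compared. Over the 12 total RNA libraries they were Ugt8a, an enzyme of galactolipid synthesis (0.869), Zfp260 (0.841), Ptgr2 (0.841), Stx7 (0.832) and Elovl7 (0.828), out of 10256. For Cldn11 alone, chosen for this after its values were seen, they were Ehd1 (0.969), Ccz1 (0.963), Scube1 (0.962), Pcyox1l (0.959) and Frmd8 (0.956) in the OL translatome. Among the 9, Cldn11 ran opposite to Opalin (r = -0.75) and Cnp (r = -0.62) over the OL libraries. These values describe 12 libraries that share groups and scaling.

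Markers of other cells were summed in every library. In total RNA, the 8 neuron markers summed to 8178 to 8639 CPM in naive, 3580 to 4574 CPM on dpi 2, 3642 to 4132 CPM on dpi 10 and 4438 to 6650 CPM on dpi 42. The 10 microglia and macrophage markers went from 228 to 271 CPM in naive to 1340 to 1586 CPM on dpi 2, 3510 to 4789 CPM on dpi 10 and 2024 to 3025 CPM on dpi 42. Astrocyte markers summed to 7285 to 9623 CPM in all 12 total RNA libraries, although single markers moved in opposite directions. Their log2 changes ran from -1.60 to 1.54 on dpi 2 and from -0.84 to 1.49 on dpi 10. On dpi 42 they ran from -0.72 to 1.50. The medians were -1.11, -0.31 and -0.28. Schwann cell markers summed to 43.9 to 99.3 CPM in naive and 63.7 to 197 CPM in injured cord. In naive total RNA the marker Drp2 alone was at 41.8 to 62.2 CPM. Another, Prx, was at 0.32 to 23.5 CPM there and at 9.43 to 62.9 CPM after injury. Endothelial and pericyte markers were at 172 to 206 CPM in naive, 260 to 410 CPM on dpi 2, 250 to 313 CPM on dpi 10 and 208 to 255 CPM on dpi 42. OPC markers summed to 364 to 404 CPM in naive and 371 to 435 CPM on dpi 2. They summed to 453 to 520 CPM on dpi 10 and 390 to 475 CPM on dpi 42. Single OPC markers went both ways here too, with log2 changes of -0.59 to 1.85 on dpi 2. On dpi 10 and dpi 42 these were -0.73 to 3.11 and -0.60 to 2.88. Their medians were 0.49, 0.79 and 0.54. The part of these shifts in the total RNA changes of Cldn11, Cnp, Opalin, Mobp and Mog was not tested. In naive OL libraries the 9 genes summed to 106569, 108452 and 85667 CPM, and on dpi 2 to 89987, 102274 and 78573 CPM. The 8 astrocyte markers summed to 2526, 2308 and 12844 CPM in naive and 4202, 2552 and 9840 CPM on dpi 2. On dpi 10 the 9 genes summed to 100108, 104768 and 105962 CPM and the astrocyte markers to 2906, 7764 and 3356 CPM, and on dpi 42 the sums were 83571, 90982 and 107208 CPM and 14905, 13010 and 2890 CPM. The library with the highest astrocyte sum was the one with the lowest sum of the 9 genes in naive, dpi 2 and dpi 42 samples, but not on dpi 10, where the lowest sum of the 9 was in the library with the lowest astrocyte sum. The part of astrocyte RNA in the results above was not tested. Without the 5 OL libraries of highest astrocyte level, Cldn11 on dpi 2 was at 1.32 (adjusted p = 2.2e-07) and Cnp at -0.89 (adjusted p = 1.9e-06). In the same setting, with 1 OL library left on dpi 42, Cnp and Ermn lost their OL call at that time. Ermn (-0.49, adjusted p = 0.0025) and Mbp (-0.36, adjusted p = 0.010) gained a call on dpi 2. This setting was chosen after seeing the data.

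Schwann cell markers, 7 genes such as Prx, a scaffold protein of peripheral myelin, summed to 8.03, 9.56 and 180 CPM in naive OL libraries. After injury they summed to 66.3 to 186 CPM on dpi 2, 152 to 233 CPM on dpi 10 and 232 to 259 CPM on dpi 42. All 9 injured OL libraries thus lay above 2 of the 3 naive libraries. Their part in the levels of Mbp, Mag, Mal and Cnp was not tested. Microglia and macrophage markers were at 19.8 to 28.1 CPM in naive OL libraries and at most 272 CPM afterwards, neuron markers at 241 to 468 CPM in all 12 OL libraries, OPC markers at 32.4 to 151 CPM and endothelial and pericyte markers at no more than 39.6 CPM.

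**Figure D5:**
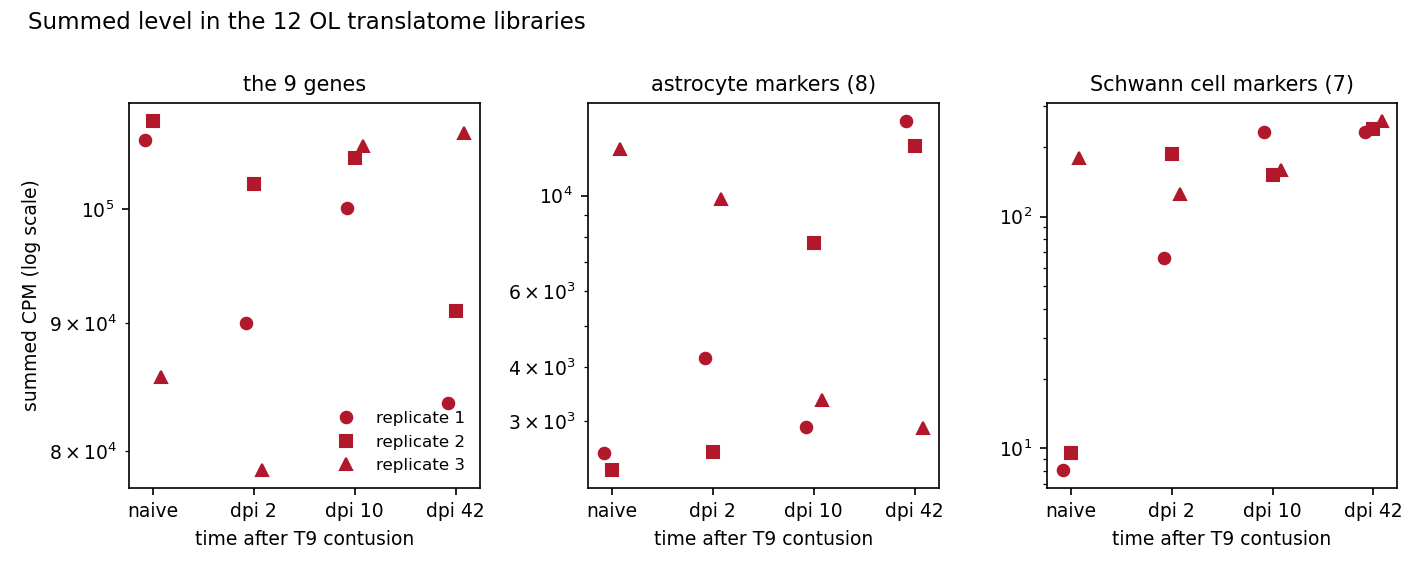
Summed CPM of the 9 genes, of 8 astrocyte markers and of 7 Schwann cell markers in each OL library, on a log axis. The 9 genes lie between 78573 and 108452 CPM in all 12 libraries, while Schwann cell markers run from 8.03 CPM in a naive library to 259 CPM on dpi 42.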

How the data were processed

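Poly-A RNA of OL translatome (HA immunoprecipitate) and total RNA (input) samples was sequenced from 12 tissue pools of 2 mice. The authors aligned reads to mm10 (GRCm38.p6) and deposited raw read counts per Ensembl gene, made with HTSeq 0.10.0 after read quality checks with FastQC 0.10.1 per the labels. Symbols were matched for 21939 of 21965 genes. All columns were used, and groups came from the labels.

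Genes with at least 10 counts summed over all 24 libraries were kept (17167). An 8-group model was fitted with edgeR 4.0.16 (R 4.3.3, TMM scaling, quasi-likelihood F test), and Benjamini-Hochberg adjustment ran over all tested genes, with a threshold of 0.05, for 19 contrasts. CI and SE come from this fit. Levels are TMM-scaled CPM, per kb of exon where genes are compared. A prior count of 2 was used for log2 CPM in likeness measures, over genes with a mean of at least 10 CPM. Alternatives used limma 3.58.1 and DESeq2 1.42.0, other scalings, filters and sets of libraries. The fit was tested on simulated counts with known changes. Counting error is small beside the spread between pools, since the lowest count of the 9 genes was 890, and reads without molecular identifiers are not independent molecules.

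All 9 members are named in the tests of enrichment and of change against naive, with at most 4 genes per other list (largest change among those past the threshold with no overlap between groups). The members and lists were chosen with earlier results of these data known, and 2 list genes are not reported here and were left out of their lists. The settings without both libraries of naive pool 3 and without the 5 OL libraries of highest astrocyte level were added after seeing the data.

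The OL and total RNA library of 1 pool share tissue. Across genes, deviations from the group mean of same-pool libraries correlated between -0.01 and 0.14, and those of different pools of the same time between -0.11 and 0.05. On dpi 42, same-pool values (-0.01 to 0.02) lay within the range of different pools (-0.03 to 0.03), so there the pairing rests on the column names alone. The tissue pool, known from the column names, was not a term of the main model and was a block in an alternative.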

Additional observations from a re-analysis of the deposited data

Results flagged for a closer look

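Changes against naive that differed between times after injury, by the contrast of the 2 times in the edgeR quasi-likelihood test with Benjamini-Hochberg adjustment, are listed here. In the OL translatome, Cnp was higher on dpi 10 than on dpi 2 (log2 0.62 ± 0.12, adjusted p = 0.00050) and still higher on dpi 42 than on dpi 2 (0.49, adjusted p = 0.0061). Cldn11 was lower on dpi 10 than on dpi 2 (-0.81 ± 0.17, adjusted p = 0.0015) and lower on dpi 42 than on dpi 2 (-1.23 ± 0.17, adjusted p = 4e-05). Between dpi 2 and dpi 10, OL levels of Mbp rose (0.41, adjusted p = 0.020) and those of Mobp fell (-0.46, adjusted p = 0.032), although neither differed from naive at these times by the test. Mog fell between dpi 2 and dpi 42 (-0.33, adjusted p = 0.032).

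In total RNA, Cnp rose between dpi 2 and dpi 10 (0.63, adjusted p = 0.0015), as did Opalin (0.81, adjusted p = 0.0043). On dpi 42, Cnp was above dpi 2 (0.37, adjusted p = 0.045) and Cldn11 below it (-1.06, adjusted p = 0.00036). The Cldn11 value from dpi 2 to dpi 10 was -0.55 and missed the threshold (adjusted p = 0.051), and it was called in 19 of the 36 alternatives (-0.67 to -0.53), 12 of which left out a single library. Mobp in total RNA (-0.44 to dpi 10 and -0.41 to dpi 42, adjusted p = 0.079 and 0.087) was called lower in 7 alternatives over each interval. Opalin in the OL translatome (0.47 from dpi 2 to dpi 10, adjusted p = 0.052) was called higher in 15.

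Of these 11 values, 5 kept their call under all 36 alternatives, namely Cldn11 in the OL translatome over both intervals, Cldn11 in total RNA from dpi 2 to dpi 42, and Cnp and Opalin in total RNA from dpi 2 to dpi 10. The Cnp value in total RNA from dpi 2 to dpi 42 was lost in 27 alternatives, 22 of which left out a single library, any but naive total RNA pool 3 and dpi 2 total RNA pool 1 (0.32 to 0.42, adjusted p up to 0.17). The Mobp value was lost in 12, of which 10 left out a single OL library (-0.42 to -0.20, adjusted p up to 0.40), and that of Mog in 8, of which 4 left out OL pools 1 or 2 of dpi 2 or dpi 42 (-0.33 to -0.26, adjusted p up to 0.15). Mbp and the OL value of Cnp to dpi 42 were each lost in 2, and the OL value of Cnp to dpi 10 in 1 (adjusted p = 0.051).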

How the results depend on the processing

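Among 171 tests of the 9 genes, 64 values were called, and no called value changed sign. Of the 64, 48 kept their call and direction in all 36 alternatives and 16 lost the call in at least 1. The 48 include every OL enrichment value, while all of the 16 were changes against naive or between times. Of such changes, calls were kept for Cldn11 and Cnp on dpi 2 and Mog on dpi 42, in both kinds of RNA. They were also kept for Mal on dpi 42 in the OL translatome and for the 5 values between times named above. OL enrichment was called for 9 of 9 genes at every time in every alternative, including those leaving out 1 library. Its size moved, and in naive cord the log2 ratio ran from 2.88 to 4.01 for Mag and from 0.99 to 2.00 for Mobp. The uncalled OL change of Cldn11 on dpi 42 (0.09) became -0.60 (adjusted p = 0.039) with an offset for gene length and GC content. The cause was not tested. Numbers of genes called moved by over 1.5 times as follows. DESeq2 size factors gave 1 for total RNA on dpi 42. Library sizes alone gave 2, 1 and 2 for the OL change on dpi 2, 10 and 42, 1 for total RNA on dpi 42, 5 for OL dpi 2 to dpi 42, and 4 and 1 for total RNA dpi 2 to dpi 10 and dpi 10 to dpi 42. TMM with a total RNA reference gave 1 for total RNA on dpi 10, on dpi 42 and from dpi 2 to dpi 42, and 1 for differential OL enrichment on dpi 2 and on dpi 42. Fitting only the groups compared gave 2 for the OL change on dpi 2 and on dpi 42, 5 for total RNA on dpi 10, 2 and 1 for OL dpi 2 to dpi 10 and to dpi 42, and 5 and 3 for total RNA dpi 2 to dpi 10 and dpi 10 to dpi 42. The length and GC offset gave 4 for OL on dpi 10, 6 and 4 for total RNA on dpi 2 and dpi 10, 2 and 1 for OL dpi 2 to dpi 10 and to dpi 42, and 1 for total RNA dpi 2 to dpi 42. Leaving out both libraries of dpi 2 pool 2 gave 1 for total RNA dpi 2 to dpi 42, and both of naive pool 3 gave 5 for total RNA on dpi 2. Without the 5 OL libraries of highest astrocyte level, which leaves 1 OL library on dpi 42 that is assumed to vary like the other groups, there were 4 and 2 for the OL change on dpi 10 and dpi 42, 2 and 1 for differential OL enrichment on dpi 2 and dpi 10, and 4, 2 and 5 for total RNA dpi 2 to dpi 10, dpi 10 to dpi 42 and dpi 2 to dpi 42. The DESeq2 test gave 1 for total RNA dpi 10 to dpi 42.

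Leaving out 1 library at a time gave 4 to 7, 0 to 3 and 2 to 6 called genes for the OL change on dpi 2, 10 and 42 and 2 to 4, 1 to 2 and 1 to 2 for total RNA. It gave 0 to 2, 0 and 0 to 2 for differential OL enrichment, 3 to 5, 0 to 4 and 2 to 5 for OL dpi 2 to dpi 10, dpi 10 to dpi 42 and dpi 2 to dpi 42, and 2 to 4, 0 and 1 to 2 for total RNA over the same intervals. With the tissue pool as a replicate block, OL enrichment gave 9 of 9 and differential OL enrichment 0 of 9 at each time. With the replicate number as a block, the change gave 4, 2 and 4 for OL and 3, 2 and 2 for total RNA, and the only call of a member that moved was Cldn11 in total RNA from dpi 2 to dpi 10 (-0.55, adjusted p = 0.019). Same-numbered pools of different times share only a number. The tissue pool block was used for OL enrichment and differential OL enrichment alone, and changed no call of a member there. Each pool belongs to a single time, so this block cannot test changes against naive or between times. Library sizes alone set the median log2 OL enrichment of all genes to -0.78 in naive cord, against -0.27 with TMM, and the length and GC offset set the median OL change of all genes to -0.05, -0.17 and -0.10 on dpi 2, 10 and 42, against 0.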
